A study of Mus musculus with 12 samples.

Results

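The RAS-ERK feedback genes described here are 10 mouse genes chosen by name from the 24062 genes of the count tables, namely Nras, Dusp4, Dusp6, Spry1, Spry2, Spry4, Spred1, Etv4, Etv5 and Phlda1. All 10 were found in the tables and all 10 passed the filter on low counts in every comparison. The lowest count of any member in any library was 22 reads, for Etv4 in a control liver. The study asked what a diet without tryptophan (Trp) does to MYC-driven liver tumors and to transplanted liver cancer cells, and sequenced polyadenylated RNA from 12 mice, 1 library per mouse and 3 mice per group.

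MYC-ON livers came from male FVB mice carrying LAP-tTA and TRE-MYC, in which a liver promoter (LAP) drives the activator of the MYC transgene and MYC was switched on at birth by taking away doxycycline. Mice 101, 102 and 103 ate the control diet and mice 105, 107 and 108 the diet without Trp (No-Trp), each for 21 days. The tumors were xenografts of HCC53N, 1 line of mouse liver cancer cells from an Alb-Cre, p53 fl/fl model with mutant NRAS, injected subcutaneously into NOD SCID females. Mice 40, 41 and 43 (control tumors) ate the control diet and mice 35, 36 and 37 (No-Trp tumors) the No-Trp diet, each for 21 days. The labels describe these cells as p53 knockout, overexpressing mutant NRAS, and also as FVB MYC ON. The xenografts stand for 1 cell line in several hosts, so the spread between them does not cover the spread between liver cancers. MYC-ON livers and xenografts differ in cell type, site, host strain, sex, immune status and driver genes, and these differences cannot be told apart.

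RAS proteins are small GTPases that carry signals from growth factor receptors to the kinases RAF, MEK and ERK. Active ERK switches on a set of genes, several of which damp the pathway in turn, so their transcripts are widely used as a readout of ERK output. Among the members, Nras encodes a RAS protein itself. Dusp4 and Dusp6 encode phosphatases that remove the activating phosphates of MAP kinases, the former in the nucleus and the latter mainly on ERK in the cytoplasm. Spry1, Spry2 and Spry4 (Sprouty proteins) and Spred1 restrain the pathway near RAS and RAF, with Spred1 bringing the RAS-inactivating protein neurofibromin to the membrane. Etv4 and Etv5 encode ETS transcription factors that act downstream of ERK, and Phlda1 encodes a pleckstrin-homology protein induced by growth signals. These genes are read here at the level of RNA, and neither the proteins nor ERK phosphorylation were measured in these libraries.

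Reads counted on genes ranged from 14660963 to 26085349 per library. Livers 101 and 108 and control xenografts 41 and 43 are marked as resubmitted, and control xenograft 40 is named in another pattern than the other tumors, so its diet was taken from its labels. Levels are given as CPM, the reads of a gene scaled to the size of its library with TMM factors over the 12 libraries. Trp53, which checks the p53 label, lay between 17.5 and 22.8 CPM in the 6 xenografts and between 46.7 and 133 CPM in the 6 livers. Gene totals do not show which exons these reads came from. The 10 hepatocyte markers summed to 10770 to 39450 CPM in the control livers and to 576 to 1451 CPM in the xenografts, where none was at 0. All 10 were called lower in the xenografts on either diet, while the summed cholangiocyte markers (Krt19, Krt7, Epcam, Sox9 and Spp1) were 2945 to 10800 CPM in the xenografts and 86.7 to 167 CPM in the livers. In bulk tissue, fewer cells of a type and less RNA per cell cannot be told apart.

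The xenografts held more RNA of every member than the livers. In each of the 10 genes the lowest of the 6 xenografts lay above the highest of the 6 livers, as it did in 22.7% of the 15472 genes tested, and 3 xenografts lay above 3 livers in 33.3% of genes on the control diet and in 37.4% on the No-Trp diet. A gene was called where edgeR's quasi-likelihood test gave an adjusted p (Benjamini-Hochberg) no larger than 0.05 and the log2 fold change was 1 or more in size. On the control diet 10 of 10 members were called higher, against 23.3% of the 15472 genes tested, and the median log2 fold change of the members was 4.26, against 0.01 for all genes. On the No-Trp diet 8 of 10 were called higher, against 24.5% of all genes, with a median of 3.11 against 0.15. No member was called lower on either diet. The members were chosen with earlier results of these data known, so these shares are no independent test of the list.

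**Figure D1:**
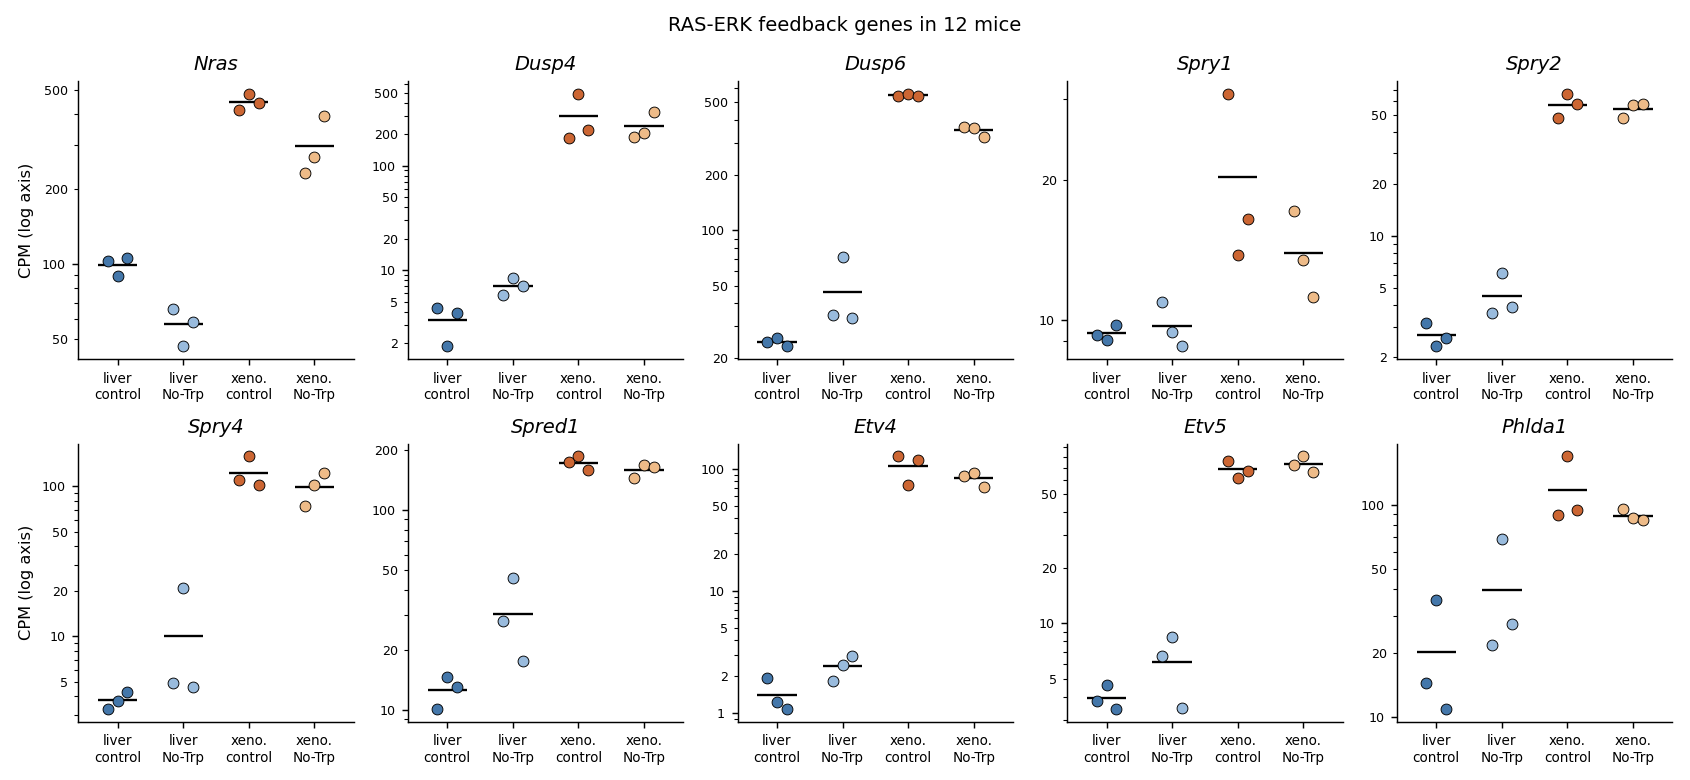
CPM (log axis, each panel with its own scale) of the 10 genes in the 12 mice, 3 per group; each point is a mouse and each bar the mean of its group. All 6 xenografts lie above all 6 livers in every panel, and the gap is narrowest for Spry1 (8.78 to 10.9 CPM in livers, 11.2 to 30.7 CPM in xenografts).

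Nras, the input of the list, read 103, 89.3 and 105 CPM in control livers 101, 102 and 103. In the control xenografts 40, 41 and 43 it read 414, 483 and 442 CPM. The control tumors were thus 4.50-fold higher (log2 fold change 2.17, SE 0.208, edgeR adjusted p = 3.08e-06), and the No-Trp tumors were 5.19-fold above the No-Trp livers (2.38, SE 0.210, adjusted p = 1.51e-06). The gene lies at chr3:103058285-103067914 on the plus strand (GENCODE M21, GRCm38), with 8 exons (merged over its transcripts) and no annotated gene on its span. The sources used here do not say whether the introduced mutant NRAS is a mouse or a human sequence, so reads of the introduced gene and of the cells' own Nras could not be told apart. Hras, which encodes another RAS protein, was not called in this comparison. It read 50.1 to 72.6 CPM in the livers and 45.9 to 85.8 CPM in the xenografts, with a log2 fold change of -0.02 on the control diet (SE 0.187, adjusted p = 0.941).

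Both phosphatase genes were called higher in the xenografts on either diet. Dusp4 (chr8:34807297-34819894, plus strand, 4 merged exons) read 4.29, 1.86 and 3.91 CPM in control livers 101, 102 and 103. It read 184, 488.5 and 221 CPM in control xenografts 40, 41 and 43. The lowest xenograft on either diet held 184 CPM and the highest liver 8.49 CPM. The log2 fold change was 6.46 on the control diet (SE 0.484, edgeR adjusted p = 5.16e-07), larger than that of 99.3% of all genes tested, and 5.09 on the No-Trp diet (SE 0.453, adjusted p = 2.06e-06). Dusp6 (chr10:99263231-99267489, plus strand, 4 merged exons) read 24.5, 25.8 and 23.3 CPM in the control livers and 540.0, 558 and 543 CPM in the control xenografts, in the same order of mice. Within each of these groups the mice lay close together, and the log2 fold change was 4.48 (SE 0.281, adjusted p = 1.10e-07). On the No-Trp diet it was 2.92 (SE 0.262, adjusted p = 1.65e-06).

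The Sprouty genes ranged from a small to a large difference. Spry2 read 3.14, 2.31 and 2.60 CPM in the control livers and 48.0, 66.3 and 57.8 CPM in control xenografts 40, 41 and 43, a log2 fold change of 4.42 (SE 0.248, edgeR adjusted p = 5.18e-08). Spry4 read 3.28 to 4.27 CPM in the control livers and 102 to 159 CPM in the control xenografts, a log2 fold change of 5.04 (SE 0.561, adjusted p = 1.51e-05). On the No-Trp diet the log2 fold change was 3.58 for Spry2 and 3.29 for Spry4. Spry1 read 9.07 to 9.74 CPM in the control livers and 30.7, 13.8 and 16.5 CPM in control xenografts 40, 41 and 43. Its log2 fold change was 1.12 on the control diet (SE 0.292, adjusted p = 0.00570) and 0.52 on the No-Trp diet (SE 0.291, adjusted p = 0.139). Xenograft 40 alone stood far above the other tumors for Spry1, and without it the control-diet value was 0.69 (adjusted p = 0.0310), under the fold threshold. Part of the Spry1 exons (710 bases) is shared with an antisense gene model, Gm42922, and the strand setting of the counting was not given in the sources used here. Spred1 (chr2:117121374-117182279, plus strand, 7 merged exons) read 10.1, 14.7 and 13.1 CPM in the control livers and 174, 186 and 159 CPM in control xenografts 40, 41 and 43, a log2 fold change of 3.78 (SE 0.299, adjusted p = 6.08e-07).

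Both ETS factor genes were low in liver. Etv4 read 1.93, 1.24 and 1.08 CPM in the control livers and 127, 74.0 and 118 CPM in control xenografts 40, 41 and 43. Its log2 fold change of 6.23 (SE 0.314, edgeR adjusted p = 2.34e-08) ranked next to that of Dusp4 among the members. Etv5 read 3.43 to 4.62 CPM in the control livers and 61.6 to 76.2 CPM in the control xenografts, with a log2 fold change of 4.11 (SE 0.280, adjusted p = 2.02e-07). Phlda1 was already expressed in liver, at 14.4, 35.5 and 10.9 CPM on the control diet, and read 89.0, 169 and 94.0 CPM in control xenografts 40, 41 and 43. Its log2 fold change was 2.54 on the control diet (SE 0.510, adjusted p = 0.00122) and 1.17 on the No-Trp diet (SE 0.488, adjusted p = 0.0568). No-Trp liver 107 held 68.9 CPM, and without it the No-Trp value was 1.82 (adjusted p = 0.00841). Phlda1 shares 727 exonic bases with an antisense RNA model, Gm28592.

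**Figure D2:**
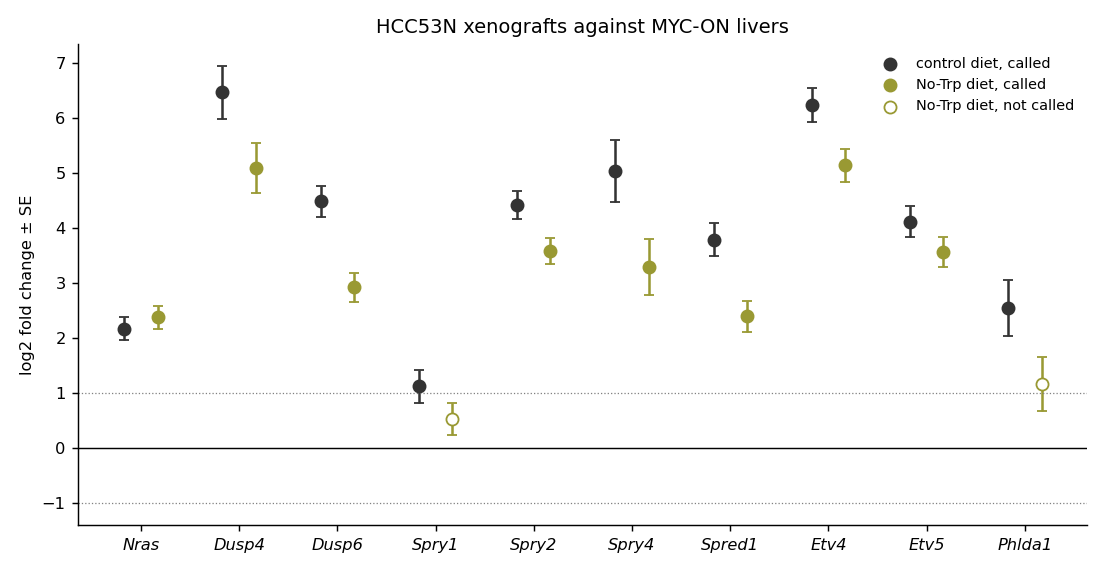
Log2 fold change ± SE of the 10 genes in xenografts against livers, 1 series of points per diet; filled points were called, open points were not, and dotted lines mark a log2 fold change of 1 in either direction. Dusp4 and Etv4 stand highest (6.46 and 6.23 on the control diet), and only Spry1 and Phlda1 on the No-Trp diet are open.

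The order of the members by abundance also differed between the models. Per kilobase of exon, Nras led the control livers at 18.6 CPM per kb (16.8 to 19.8), followed by Phlda1 (9.20) and Dusp6 (7.82), whose ranges overlapped each other. In the control xenografts Dusp6 led at 175 CPM per kb (172 to 178), followed by Dusp4 at 109 (67.0 to 178) and Nras at 83.8 (77.7 to 90.6), with overlapping ranges between each pair of neighbours. Etv4 was the least abundant member in the control livers (0.456 CPM per kb) and the fifth in the control xenografts (34.3), where Spry1 was last (7.01). Across the 4 groups, 8 of the 10 genes ran from control xenografts through No-Trp xenografts and No-Trp livers down to control livers. Nras exchanged the order of the livers, and Etv5 that of the xenografts. Neighbouring groups in this order overlapped for many of these genes: the xenograft groups were apart for Nras and Dusp6, and the liver groups for Nras, Dusp4, Dusp6, Spry2, Spry4 and Spred1.

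Other genes of the pathway were taken from lists chosen with earlier results of these data known. These lists are no independent check on the members. Of 23 tested other ERK-induced and feedback genes, 20 were called higher in the control xenografts and none lower, with a median log2 fold change of 4.01. On the No-Trp diet 18 were called higher and 1, Errfi1, lower (-2.31, SE 0.568, edgeR adjusted p = 0.00427). Areg, which encodes the EGF receptor ligand amphiregulin, rose by 6.10 on the control diet (SE 0.453, adjusted p = 4.46e-07), Dusp5, a nuclear ERK phosphatase gene, by 5.73 (SE 0.472), and Fosl1, an AP-1 subunit gene, by 6.33 on the No-Trp diet (SE 0.534). The lists that carry the signal rather than respond to it had medians nearer 0. On the control diet 8 of 18 RAS GTPases and regulators were called higher and 1 lower (median 0.77), 5 of 14 RAF-MEK-ERK kinases and scaffolds higher and 1 lower (0.40), and 7 of 18 receptors and adaptors higher and 6 lower (0.14). Among them Rasa3, a RAS GTPase-activating protein gene, rose by 3.49, and Fgfr1 and Igf1r, receptor genes, rose by 4.34 and 3.98, while Fgfr3 fell by 4.74. Of 6 other MAP kinase phosphatases, 1 was called higher (Dusp10, 2.54) and 2 lower (Dusp9, -2.71, and Dusp2, -1.87), with a median of -0.29. On the No-Trp diet the calls in these 4 lists were 4 higher and 1 lower, 5 and 0, 7 and 5, and 1 and 2, in the same order. Over all 15472 genes tested, 3603 were called higher and 3121 lower on the control diet, and 3796 and 2959 on the No-Trp diet. Myc, itself an ERK target, read 29.1 to 128 CPM in the livers and 165 to 275 CPM in the xenografts. By the study's methods, reads that matched the human MYC transgene better than the mouse genome were counted apart, and whether they were also left out of the gene counts was not given in the sources used here.

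**Figure D3:**
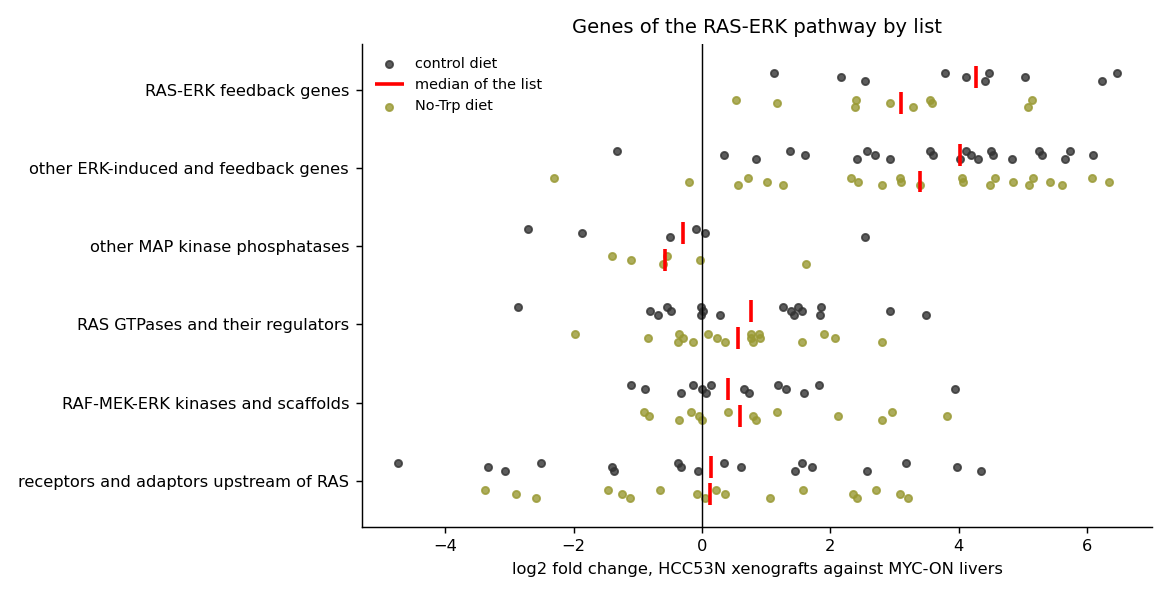
Log2 fold change in xenografts against livers of each tested gene in 6 lists of RAS-ERK pathway genes, colored by diet, with red bars at the median of each list. The feedback genes and the other ERK-induced genes sit to the right (medians 4.26 and 4.01 on the control diet), and the other 4 lists spread on both sides of 0 (medians between -0.29 and 0.77).

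In the MYC-ON livers the No-Trp diet left 9 of 10 members with a log2 fold change above 0 (8 of 10 with library totals, where Spry1 was at -0.23), and the exception was Nras. Spred1 was the member called, against 9.28% of 14122 genes called higher in this comparison. The median of the 10 was 0.86, against -0.00309 for all genes. The groups did not overlap for 6 of 10 members, with the No-Trp livers on top in 5 and below in 1, but 48.6% of all genes tested did not overlap here either.

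Spred1 read 10.1, 14.7 and 13.1 CPM in control livers 101, 102 and 103 and 27.8, 45.6 and 17.6 CPM in No-Trp livers 105, 107 and 108. All No-Trp livers lay above all control livers, with liver 108 close to the highest control. The log2 fold change was 1.29 (SE 0.357, edgeR adjusted p = 0.0393). The call was lost without liver 101 (adjusted p = 0.115), 103 (0.120), 105 (0.0873) or 107 (0.0851, log2 fold change 0.86), and when library totals replaced the TMM factors (0.93, adjusted p = 0.0693).

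Nras, in contrast, read 66.3, 46.7 and 58.8 CPM in No-Trp livers 105, 107 and 108, all below the 89.3 to 105 CPM of the control livers. Its log2 fold change of -0.78 (SE 0.173, edgeR adjusted p = 0.0253) passed the adjusted p, which 25.3% of all genes did in either direction, but not the fold threshold. With library totals it was -1.05 (adjusted p = 0.0316) and passed both. Hras had a log2 fold change of -0.25 (SE 0.155, adjusted p = 0.261).

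Dusp6 read 34.5, 71.3 and 33.1 CPM in No-Trp livers 105, 107 and 108, all above the 23.3 to 25.8 CPM of the control livers. Its log2 fold change of 0.94 (SE 0.314, edgeR adjusted p = 0.0641) did not pass, and without liver 107, which was over 2 times either of the others, it was 0.47. Dusp4 read 5.78, 8.49 and 6.99 CPM on the No-Trp diet, above the 1.86 to 4.29 CPM of the controls (1.09, SE 0.374, adjusted p = 0.0690). Of the members, Spry4 moved most when 1 liver was left out. Its No-Trp livers read 4.86, 21.0 and 4.59 CPM, and the log2 fold change of 1.45 (SE 0.617, adjusted p = 0.119) became 0.33 without liver 107. Spry2 (0.77, adjusted p = 0.117), Etv4 (0.78, adjusted p = 0.160), Etv5 (0.67, adjusted p = 0.206) and Phlda1 (0.99, adjusted p = 0.241) were not called. Without liver 107 the values fell to 0.48 for Spry2, 0.37 for Etv5 and 0.29 for Phlda1, and without liver 102 that of Phlda1 was 1.64. Spry1 read 8.78 to 10.9 CPM in the No-Trp livers, overlapping the controls, with a log2 fold change of 0.07 (SE 0.210, adjusted p = 0.834).

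The paper reports fewer and smaller tumors and lower liver weights in MYC-ON mice on the No-Trp diet. The liver diet values are therefore not read here as a response of tumor cells alone. The share of tumor tissue in each library was not tested, nor was its part in the values of the members. The livers of this comparison also differed in their markers. Of 10 hepatocyte markers 6 were called higher on the No-Trp diet, with a summed level of 51940 to 126700 CPM. Of 7 erythroid markers 6 were called lower (63.5 to 649 CPM in control and 16.4 to 27.4 CPM in No-Trp livers), and of 8 cell division markers 7 were called lower (1445 to 1633 and 104 to 461 CPM). Over all 14122 genes tested, 1311 were called higher and 1026 lower. Fibroblast and endothelial markers each had 1 gene called higher of 7, adipocyte markers 1 higher and 1 lower of 3 tested, and none of the macrophage, lymphocyte and neutrophil, skeletal muscle, keratinocyte and cholangiocyte markers was called. Their part in the values of the feedback genes was not tested. Among the other pathway genes Errfi1, a feedback inhibitor of the EGF receptor, rose by 2.49 (SE 0.709, edgeR adjusted p = 0.0434) and Epha2 by 1.06 (SE 0.239, adjusted p = 0.0259), 2 of 21 tested other ERK-induced genes, where 9.28% of all genes were called higher. Mras fell by 1.58 (1 of 18 RAS GTPases and regulators), Pdgfra rose by 1.27 and Erbb2 fell by 1.07 (both of 18 receptors and adaptors), and no kinase, scaffold or other phosphatase was called. Over 15 other settings these calls were lost in 7 for Errfi1 (adjusted p up to 0.145), 5 each for Epha2 and Erbb2, 4 for Pdgfra and 3 for Mras.

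In the HCC53N xenografts no member was called on the No-Trp diet, in edgeR or in DESeq2, where 53 of 14704 genes were called in edgeR (0.36%). An unadjusted p under 0.05 was reached by 2 of the 10 members, Dusp6 and Nras, against 16.9% of all genes, and those were also the members whose groups did not overlap (22.6% of all genes did not). The log2 fold change was below 0 for 9 of 10 (8 of 10 with library totals, where Spry2 was at 0.015), with a median of -0.34 against -0.00449 for all genes.

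Dusp6 read 540.0, 558 and 543 CPM in control xenografts 40, 41 and 43 and 367, 362 and 325 CPM in No-Trp xenografts 35, 36 and 37. The groups were well apart and narrow in themselves. They also differed in the reads left out of the counts (28.5% to 39.4% in control and 26.4% to 26.8% in No-Trp tumors). Control xenografts 41 and 43 are marked as resubmitted, and none of the No-Trp tumors is. The log2 fold change of Dusp6 was -0.65 (SE 0.134), with an edgeR adjusted p of 0.0782 (unadjusted p = 0.000946) and a DESeq2 adjusted p of 0.00617, in both cases under the fold threshold. Nras read 233, 268 and 392 CPM in No-Trp xenografts 35, 36 and 37, below the 414 to 483 CPM of the controls, with xenograft 37 near the lowest control (-0.59, SE 0.211, edgeR adjusted p = 0.218). Spry1 (-0.56), Phlda1 (-0.41), Etv4 (-0.35), Spry4 (-0.33), Dusp4 (-0.31), Spred1 (-0.13), Spry2 (-0.09) and Etv5 (0.09) had edgeR adjusted p between 0.418 and 0.827 and overlapping groups, and some of these values rested on 1 tumor. Without xenograft 41 Dusp4 was at 0.24, Phlda1 at -0.059 and Spry4 at -0.11, without xenograft 40 Spry1 was at -0.14 and Etv4 at -0.20, and without xenograft 35 Spred1 was at -0.046. The No-Trp tumors read 389 to 823 CPM summed over 6 adipocyte markers, of which 3 were called higher, against 14.2 to 69.1 CPM in the control tumors. All 8 cell division markers had a log2 fold change above 0 (median 0.57) and none was called (592 to 612 CPM in control and 749 to 976 CPM in No-Trp tumors). An unadjusted edgeR p under 0.05 was reached by 6 of these 8, and the groups did not overlap for 5. All 6 skeletal muscle markers had a log2 fold change above 0 (median 2.47), 5 of them with an unadjusted p under 0.05 and groups that did not overlap (1.81 to 19.4 CPM summed in control and 31.6 to 63.1 CPM in No-Trp tumors), and none was called. No gene of the other 8 marker lists was called. The part of these markers in the values of the feedback genes was not tested. Of the other pathway genes, Fgfr2, a receptor gene, was called (2.42, SE 0.394, edgeR adjusted p = 0.0499), a call lost in 8 of 15 other settings (adjusted p up to 0.177).

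**Figure D4:**
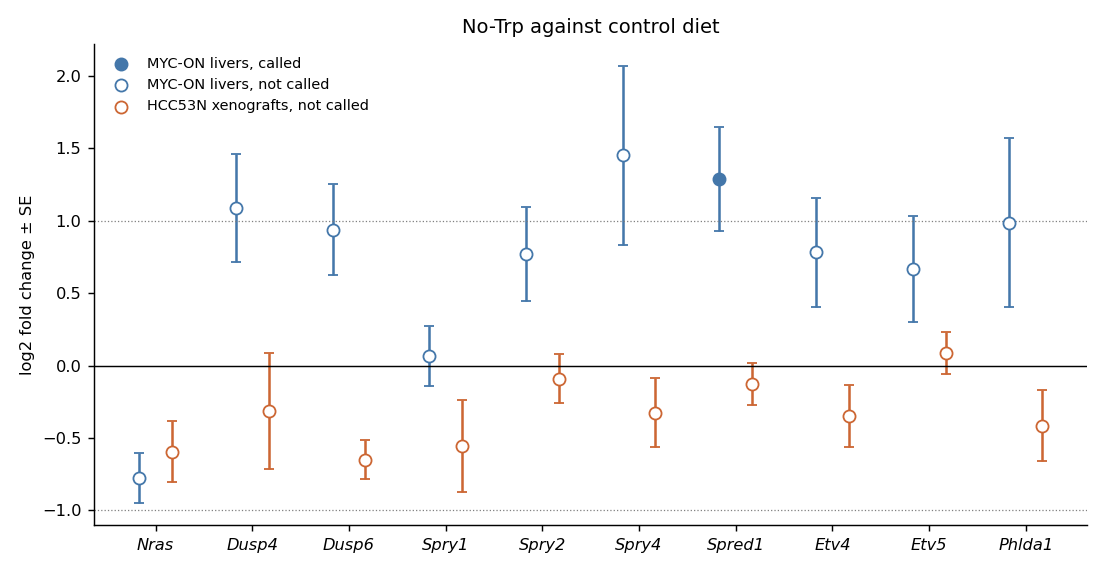
Log2 fold change ± SE of the 10 genes on the No-Trp against the control diet in MYC-ON livers and in HCC53N xenografts; the filled point was called, open points were not, and dotted lines mark a log2 fold change of 1 in either direction. In livers 9 genes lie above 0, from 0.07 (Spry1, at -0.23 with library totals) to 1.45 (Spry4), and Nras below it, and in xenografts 9 genes lie below 0 (Spry2 at 0.015 with library totals).

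Whether the diet response differed between the models was tested with the interaction of model and diet over all 12 libraries, given as the log2 response in xenografts minus that in livers. All 9 members other than Nras had a difference below 0, from -1.75 (Spry4) to -0.56 (Etv5). They were below 0 in every alternative run as well, from -2.09 (Spry4 without liver 108) to -0.15 (Etv5 with library totals). The difference was called lower for 2 of the 10, Dusp6 and Spred1, against 6.01% of 15472 genes. Dusp6 differed by -1.56 (SE 0.347, edgeR adjusted p = 0.0160). This value stayed past both thresholds in each of 19 alternative settings, from -1.75 to -1.09, with adjusted p up to 0.0457, and the value nearest to 0 was that without liver 107. Spred1 differed by -1.39 (SE 0.382, adjusted p = 0.0323), and this call was lost with library totals (-0.95, adjusted p = 0.0703) and without any of 9 of the 12 mice (livers 101, 103 and 107 and every xenograft, adjusted p between 0.0527 and 0.0698, the smallest size being -0.96 without liver 107). Spry4 (-1.75, SE 0.687, adjusted p = 0.103), Dusp4 (-1.37, SE 0.559, adjusted p = 0.113), Phlda1 (-1.37, SE 0.686, adjusted p = 0.195), Etv4 (-1.10, SE 0.384, adjusted p = 0.0713) and Spry2 (-0.83, SE 0.314, adjusted p = 0.0901) were not called. Without liver 107 the differences were -0.63 for Spry4, -0.68 for Phlda1 and -0.27 for Etv5. Both thresholds were passed by Etv4 and Spry4 in DESeq2 (adjusted p = 0.0334 and 0.0408), by Spry4 without liver 108 (0.0473), by Etv4 without liver 101 (0.0435) or xenograft 41 (0.0380), and by Phlda1 without liver 102 (-2.04, adjusted p = 0.0343). Nras had a log2 fold change below 0 in both models, and the difference between them was 0.21 (SE 0.283, adjusted p = 0.656), with 0.56 under library totals and -0.043 without xenograft 37. The diet values of each model and this difference rest on the same libraries and are not independent of each other. The liver side of the difference compares livers for which the paper reports unlike tumor burden, and the part of tumor burden was not tested.

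Dusp6 and Spred1 are the members whose difference in diet response was called, so the sequence upstream of each start site is shown. Both are the 250 bases before a start site in RefSeq (GRCm38.p6), plus strand, 5′ to 3′, with GGAA, the core bound by ETS factors such as Etv4 and Etv5, and its reverse complement TTCC in capitals. Dusp6 occupies chr10:99262981-99263230 and Spred1 chr2:117120821-117121070. The Dusp6 window ends next to the GENCODE start of its gene (99263231). The Spred1 window follows a RefSeq start site and ends upstream of the GENCODE start of its gene (117121374).
Dusp6: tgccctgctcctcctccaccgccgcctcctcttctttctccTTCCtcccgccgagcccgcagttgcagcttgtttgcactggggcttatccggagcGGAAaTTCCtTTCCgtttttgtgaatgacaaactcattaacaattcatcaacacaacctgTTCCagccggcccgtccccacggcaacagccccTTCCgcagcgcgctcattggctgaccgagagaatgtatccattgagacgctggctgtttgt
Spred1: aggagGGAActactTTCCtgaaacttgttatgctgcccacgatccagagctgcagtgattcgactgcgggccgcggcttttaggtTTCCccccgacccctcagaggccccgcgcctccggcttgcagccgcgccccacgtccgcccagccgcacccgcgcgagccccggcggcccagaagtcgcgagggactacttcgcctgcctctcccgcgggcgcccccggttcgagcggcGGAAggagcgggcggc
The Dusp6 window held 6 matches on either strand, a number reached by 8.69% of 32851 promoter windows of the same length, and the Spred1 window held 4, reached by 33.4%. A promoter entry was found for 6 of the 10 members (Nras, Dusp6, Spry1, Spry2, Spred1 and Etv5), in 7 windows since Etv5 has 2. At least 1 GGAA was held by 6 of the 7, as by 93.4% of all windows, and the exception was 1 of the Etv5 windows. None of the 7 held CCGGAA (12% of all windows), the AP-1 motif TGANTCA (6.75%), the cAMP response motif TGACGTCA (1.55%) or the CArG box bound by serum response factor (1.47%). Both strands were searched, CCGGAA lies within matches of GGAA, and a match describes letters, not binding.

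On log2 CPM centred on the mean of its model, liver 107 had the highest value of the 6 livers for 7 of the 9 members other than Nras, with a median deviation of 0.84 and the lowest Nras of all livers. Livers 105 and 108 lay close to the mean of the livers (0.08 and 0.02), and control livers 101, 102 and 103 below it (-0.32, -0.35 and -0.47). Among the tumors, control xenograft 41 had the highest value for 6 of the 9, with a median deviation of 0.26. Dusp4, at 488.5 CPM in xenograft 41 against 184 and 221 CPM in xenografts 40 and 43, and Phlda1, at 169 against 89.0 and 94.0 CPM, showed this most. Xenograft 41 is among the resubmitted libraries and liver 107 is not. Liver 107 also held the highest summed hepatocyte markers of the No-Trp livers (126700 CPM, against 61660 in 105 and 51940 in 108). Its cell division markers were the lowest (104 CPM, against 442 and 461.5), and its erythroid markers lay between the others (21.0, against 16.4 and 27.4). The part of these markers in the values of liver 107 was not tested.

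**Figure D5:**
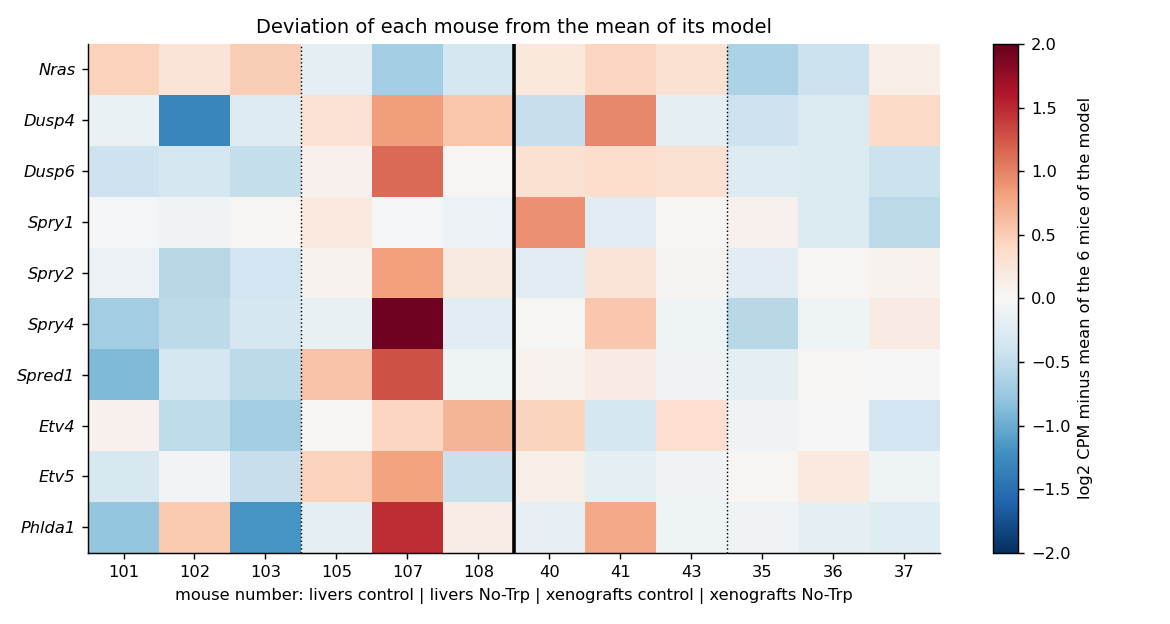
Log2 CPM of each gene in each mouse minus the mean of the 6 mice of its model, in color from -2 to 2; the thick line separates livers from xenografts and dotted lines separate the diets. Liver 107 is the darkest red column (1.94 for Spry4 and 1.47 for Phlda1), and the Dusp6 row is red in all 3 control xenografts and blue in all 3 No-Trp xenografts.

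The genes most like Nras and Dusp6 over the 12 mice were sought by the smallest root mean square difference in log2 CPM, again centred within each model, so that the gap between models plays no part. For Nras these were Rsl24d1 (0.122), Atp6v1b2 (0.127) and Hnrnpdl (0.149), where Nras itself varied by 0.411 about its means. For Dusp6 they were Ssh2 (0.174), Phf1 (0.176) and Ppp1r16a (0.190), where Dusp6 itself varied by 0.450. The search was limited to tested genes outside the members, so it cannot say how close the members lie to each other.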

How the data were processed

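RNA from 6 MYC-ON livers and 6 HCC53N xenografts was sequenced. The authors trimmed reads with Trim Galore, aligned them to mm10 with STAR 2.7.2b, sorted them with SAMtools 1.9 and deposited HTSeq counts per gene, unnormalized; the strand setting and overlap rule were not given in the sources used here. Reads that HTSeq left out (24.7% to 39.4% per library) entered neither library sizes nor tests. Groups came from the labels. Counts were tested with edgeR 4.0.16 in R 4.3.3 (TMM, filterByExpr, robust quasi-likelihood fit, two-sided), diets within each model and model and interaction over all 12 libraries, with Benjamini-Hochberg adjustment over all genes tested. The SE is the log2 fold change divided by the square root of F. Other settings were DESeq2 1.42.0, other size factors and filters, the resubmission mark as a covariate, 1 fit over all libraries and leaving out each mouse. Centred log2 CPM used a prior count of 2. The common biological coefficient of variation was 31.6% in livers and 28.7% in xenografts, above the counting error of well-covered genes. The fits were also run on simulated counts with the same spread for every gene, below that of these data. That run does not measure how stable the calls reported here are. Members and gene lists were chosen with earlier results of these data known. Beside the members, the text names the 2 largest calls in each direction per pathway list and comparison or some of them, genes that check the labels, and the 3 nearest profiles.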

Additional observations from a re-analysis of the deposited data

Results flagged for a closer look

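The interaction of model and diet passed both thresholds for 2 members and for 5 other genes among those the naming rule picks from the pathway lists, by a test of the difference itself. As log2 response in xenografts minus livers, Dusp6 differed by -1.56 and Spred1 by -1.39. Errfi1 (-2.65), Myc (-1.66), Rras (-1.26) and Map2k2 (-1.05) also differed below 0, and Iqgap1, a scaffold of the MAP kinase cascade, differed by 1.14. Over 20 other settings these calls were lost in 0 for Dusp6, 10 for Spred1, 14 for Myc (adjusted p up to 0.104), 11 for Errfi1 (up to 0.112), 7 for Iqgap1, 4 for Map2k2 and 1 for Rras. Across all 15472 genes tested 930 differed below 0 and 1036 above it. Myc here is the row of the mouse gene, and its change in livers was not called (1.29, SE 0.442, edgeR adjusted p = 0.0705, groups overlapping). For the MYC transgene, the paper reports a lower level in livers without Trp. The models differ in cell type, host, sex and site as well as in drivers, and these cannot be told apart. The part of the tumor burden of the livers, which the paper reports as lower without Trp, was not tested either.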

How the results depend on the processing

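No paired analysis was possible because the groups share no animal numbers. Of 900 alternative values of the members, 859 kept their direction and side of the thresholds, 16 lost a call, 15 gained one and 10 changed sign. The setting with adjusted p alone, counted among these, reuses the main fit. It could add calls but could not lose a call or change a sign. In livers, members called higher were 1 in the report, 0 with library totals and 2 with DESeq2 (Dusp4 added), and members called lower were 0 in the report and 1, Nras, with library totals or with adjusted p alone. Leaving out 1 mouse gave 0 to 1 called higher. Liver genes called were 2337, 3570 with adjusted p alone and 8 (without liver 103) to 3207 (without liver 102) leaving out 1 mouse, with 294 without liver 101, 368 without 105 and 1269 without 107. Xenograft genes called were 53, 82 with RLE factors, 380 with DESeq2, 118 with no filter, 15 with at least 10 counts in every library, 4 with the resubmission covariate, 23 in 1 fit over 12 libraries, 85 without Rn45s (a ribosomal RNA gene, an alternative chosen after seeing the data) and 9 to 78 without 1 mouse. Members whose response was lower in xenografts than in livers were 2, 1 with library totals, 4 with DESeq2 and 1 to 3 without 1 mouse, and genes called in that comparison were 1966, 916 to 2571 without 1 mouse and 1769 to 2735 in the other settings. In the comparison of models, members called higher stayed at 9 to 10 on the control diet and 8 to 10 on the No-Trp diet. Signs changed for Spry1 in livers (-0.23 with library totals, and -0.022 without liver 105 to 0.14 without 108). In xenografts they changed for Dusp4 (0.39 with the covariate, and -0.59 without xenograft 37 to 0.24 without 41), Spry2 (0.015 with library totals, 0.17 with the covariate, 0.0094 without xenograft 35, and -0.21 without 40 to 0.026 without 41) and Etv5 (-0.067 with the covariate). The interaction of Nras was 0.56 with library totals and ranged from -0.043 without xenograft 37 to 0.36 without 35. The cause of these changes was not tested. Library totals moved the median of all genes to -0.30 in the liver diet comparison, to 0.11 in the xenografts, to 0.41 in the interaction and to 0.68 between models on the No-Trp diet, and the values of the members should be read against these.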
